A study of Mus musculus with 2 samples.

Results

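Endothelial cells, the barrier they form and the pericytes around them were examined through 38 genes, taken as the rows of the deposited gene table that carry these symbols. All 38 were found among 51826 listed genes. RNA was taken from spinal cords of C57BL/6 animals on postnatal day 7, 1 library for each genotype. The control was wild type (WT), and the other genotype (cKO) combined Olig1-Cre with Secisbp2l floxed at exon 3. Olig1 drives the Cre in the oligodendrocyte lineage, so the genes described here belong mainly to cells outside the targeted lineage. The labels do not give the number of animals per library. No difference had a replicate check and no p-value is given, because each group had 1 library.

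Vessels of the spinal cord are lined by endothelial cells that seal their contacts with tight junctions, carry few vesicles and supply the tissue through dedicated transporters. VEGF, acting through KDR, drives vessel growth, and angiopoietins, acting through TEK and modulated by TIE1 and PTPRB, steady the wall. Wnt7a and Wnt7b from neural cells signal through Frizzled receptors with ADGRA2 and RECK and switch on barrier genes such as Slc2a1, Cldn5 and Mfsd2a. Pericytes, recruited by PDGF-B through PDGFRB, wrap the capillary and hold the barrier closed.

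Estimated counts summed to 42875143 for WT and 55179026 for cKO. Secisbp2l, the targeted gene, stood at 588 in WT, as counts scaled to a total of 1000000 (CPM), and 466 in cKO, values that do not isolate exon 3. The WT library had 35182 Xist counts and the cKO library 13, and 4 Y-linked genes had 0 counts in WT and 1081 to 4280 in cKO. The libraries thus differed in sex pattern as well as in genotype. Differences by sex and by genotype cannot be told apart for any gene, autosomal genes included. Of 8 myelin genes taken as oligodendrocyte markers, 8 were at least 1.5-fold lower in cKO, and their summed level was 13680 in WT, in length-corrected transcripts per 1000000 (TPM), and 6908 in cKO. Among them Opalin, Fa2h and Mobp had log2 ratios of -1.66, -1.57 and -1.24, and Mbp, the most abundant, was at -0.89. Ratios below are cKO over WT of TMM-scaled counts on the log2 scale. Intervals are exact (Clopper-Pearson) at 95% and cover counting error only.

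All 38 genes passed the filter of a mean of at least 1 CPM, so none was left out of the counts. Together they made up 0.216% (WT) and 0.219% (cKO) of a library. Per length, in TPM as deposited, Bsg was the most abundant at 665 in WT and 650 in cKO. It was followed in both libraries by Itm2a (193 and 170), Vtn (155 and 164) and Cldn5 (126 and 141). Emcn was the least abundant in both libraries, at 6.43 and 5.46. Bsg, Slc7a5, Tjp1 and Vtn are not confined to vessels in textbook descriptions, while Cldn5, Cdh5, Pecam1, Tie1 and Esam are defining endothelial genes, and the last 5 lay between 13.0 and 126 TPM in WT. The pericyte markers Rgs5 (98.1 and 101 TPM) and Pdgfrb (17.4 and 18.9 TPM) were present in both libraries. Defining markers of both cell types were thus detected.

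**Figure D1:**
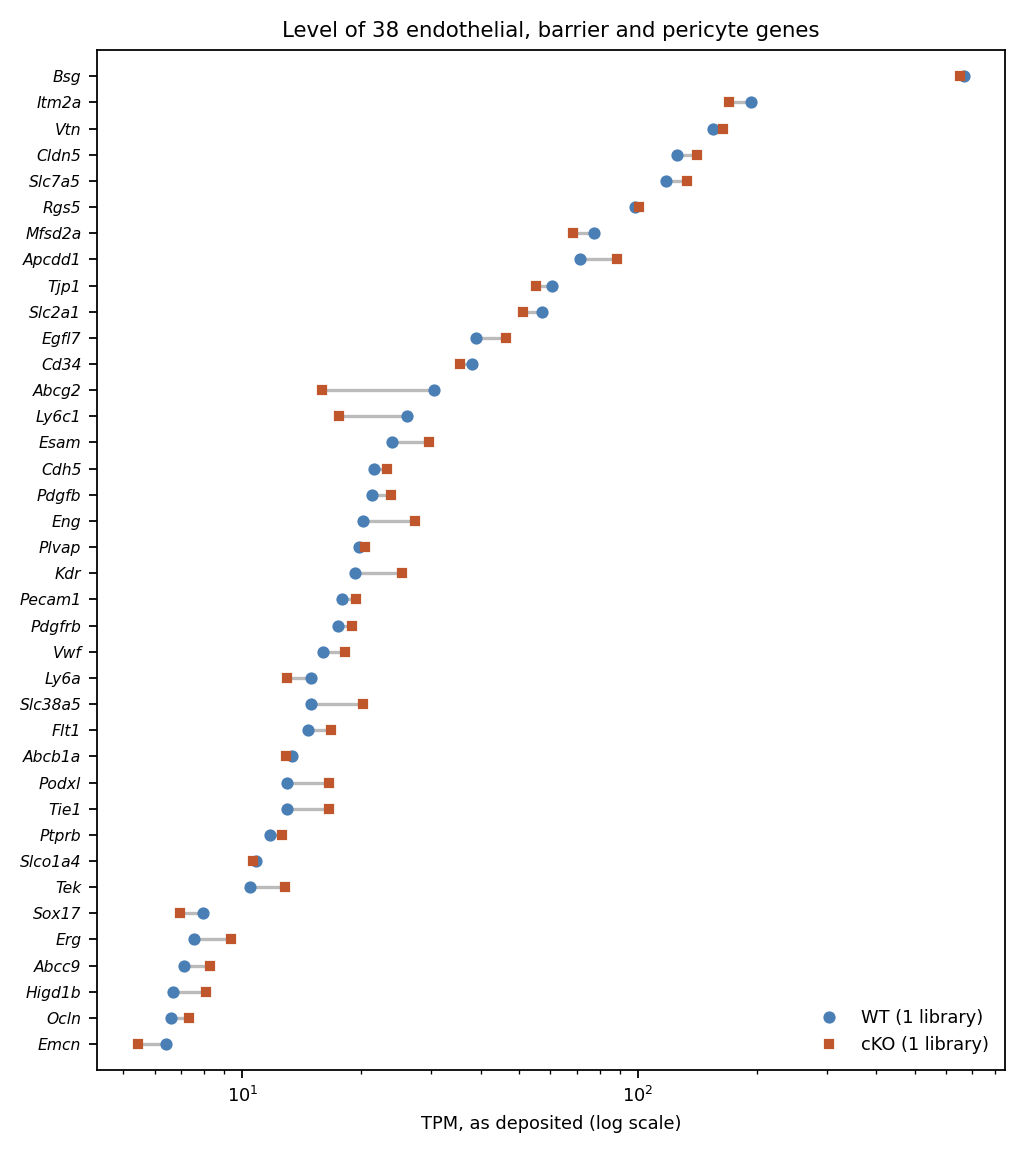
Level of each of the 38 genes in TPM as deposited (log axis), ordered by the WT value, with circles for the WT library and squares for the cKO library. Most pairs lie close together over the range from Emcn (6.43 in WT) to Bsg (665 in WT), and Abcg2 has the widest gap (30.5 in WT and 15.9 in cKO).

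The vascular genes as a whole differed little between the libraries. Their median log2 ratio was 0.08, against 0.01 over all 15917 measured genes, and 24 of 38 lay above 0, against 52.3% of all measured genes. A size rule asked for a 1.5-fold difference and an interval clear of equality. By it 0 of 38 were higher in cKO, against a background of 2.46% of all measured genes. Under the same rule 1 of 38 was lower, Ly6c1, against a background of 3.42%. Both counts are near the background. With the fold lowered to 0.32 on the log2 scale, 4 of 38 were higher (Slc38a5, Kdr, Eng and Tie1), against 6.23% of all measured genes, and 1 of 38 was lower, against 7.84%. At any fold, intervals lay above a ratio of 1 for 13 genes and below it for 7, against 21.9% and 18.4% of all measured genes. In RNA from whole tissue, fewer cells of a type and less RNA per cell cannot be told apart.

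**Figure D2:**
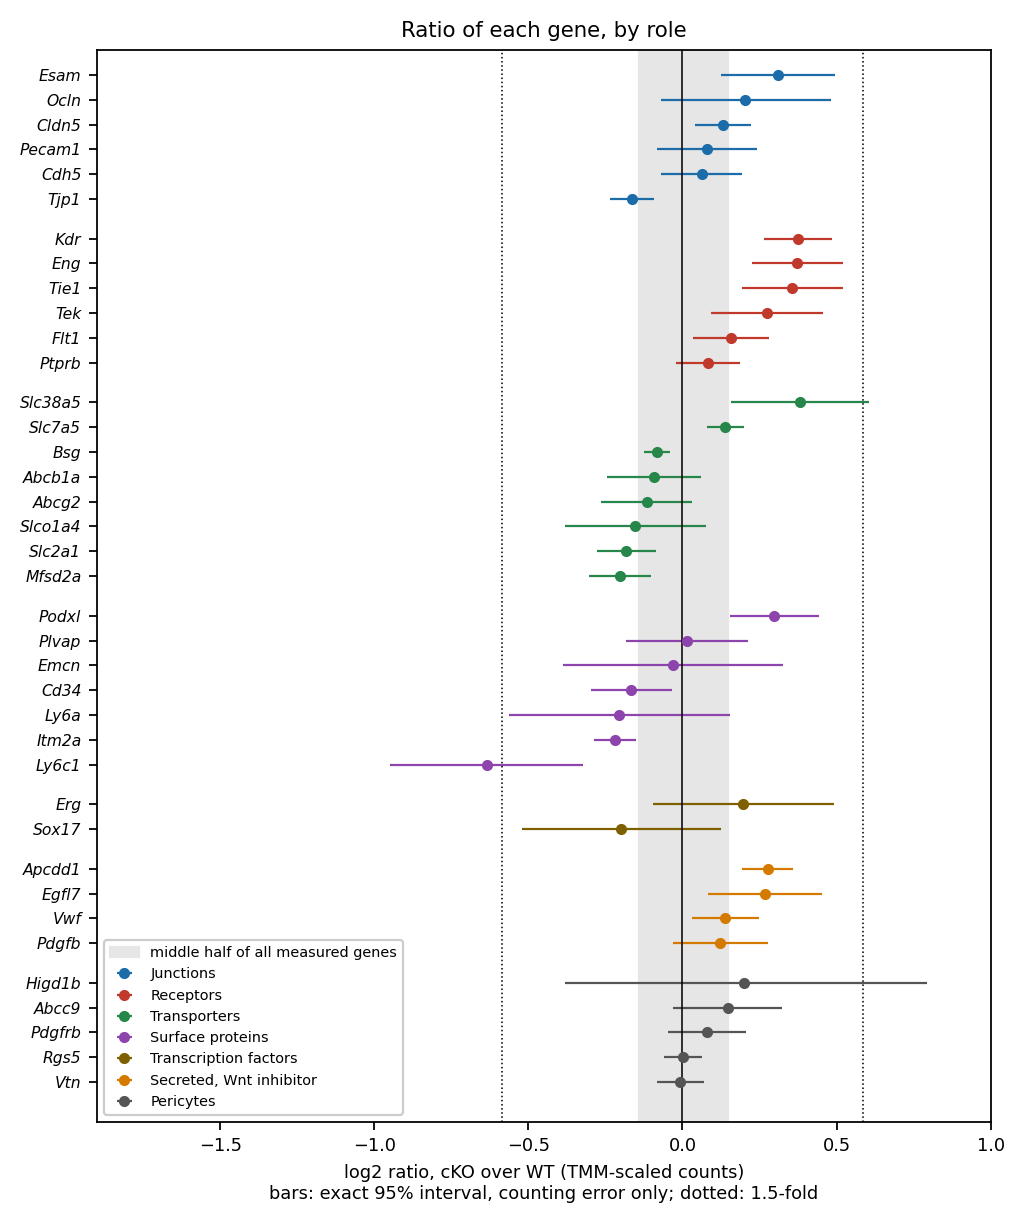
Log2 ratio of cKO over WT for each gene, grouped by role, with exact 95% intervals for counting error. The grey band is the middle 50% of all measured genes (-0.14 to 0.15) and dotted lines mark 1.5-fold. All 6 receptors lie to the right of 0, and Ly6c1 is the only point beyond a dotted line.

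The 6 member genes grouped as receptors of vessel growth and stability lay on the higher side. Receptors in the further lists went both ways, as seen in genes named after their values were seen. Unc5b (-0.49), Aplnr (-0.16) and Calcrl (-0.16) were lower in cKO, and Flt4 (0.41) and Notch4 (0.43) higher. All 6 members of the group had a ratio above 0, with a median of 0.32, and all 6 were above 0 on the authors' TPM. The 3 other library scalings moved ratios by at most 0.018, too little to change any of these signs. Kdr, the main signalling receptor of VEGF (chr5:75932827-75978458 in GRCm38, minus strand), stood at 50.1 CPM in WT and 65.0 in cKO. Its log2 ratio of 0.37 (interval 0.26 to 0.49) corresponds to 1.30-fold. Eng, endoglin, a co-receptor for BMP9 and TGF-beta, went with it at 27.9 and 36.1 CPM (0.37, interval 0.22 to 0.52). Tie1, an orphan partner of TEK, had 22.7 and 29.1 CPM (0.36, interval 0.19 to 0.52). Each of these 3 lay higher than 92.6% or more of all measured genes, yet short of 1.5-fold.

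The other receptors of the group were nearer to equality. Tek, the angiopoietin receptor, had 19.2 CPM in WT and 23.2 in cKO (0.27, interval 0.09 to 0.46). Flt1, a VEGF receptor that mostly acts as a decoy, had 42.2 and 47.1 CPM (0.16, interval 0.03 to 0.28). Ptprb, the phosphatase that restrains TEK, had 60.6 and 64.1 CPM and an interval that includes equality (0.08, -0.02 to 0.19). The receptors summed to 89.3 TPM in WT and 111 TPM in cKO.

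The promoters of the member receptors with the highest ratios were read for ETS motifs, since ETS factors such as ERG act on many endothelial genes. RefSeq windows (GRCm38.p6, 250 bases before to 50 after the start) were found for 23 of the 38 genes, 31 windows in all. The window of Abcb1a lies 92986 bases from the start of its main transcript here, and it is counted among the matches of the motif AGGAAG, of the core TTCC and of the Wnt motif CTTTGA below. The pair below belongs to Kdr and Eng, shown 5′ to 3′ on the strand of the gene, with GGAAGT or its reverse complement in capitals.
Kdr, chr5:75978406-75978705, minus strand: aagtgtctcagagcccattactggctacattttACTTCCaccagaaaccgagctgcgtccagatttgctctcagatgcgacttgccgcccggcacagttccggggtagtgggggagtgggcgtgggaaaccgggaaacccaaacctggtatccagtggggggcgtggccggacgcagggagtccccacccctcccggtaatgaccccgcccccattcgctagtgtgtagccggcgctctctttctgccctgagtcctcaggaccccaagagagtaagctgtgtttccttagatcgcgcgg
Eng, chr2:32646345-32646644, plus strand: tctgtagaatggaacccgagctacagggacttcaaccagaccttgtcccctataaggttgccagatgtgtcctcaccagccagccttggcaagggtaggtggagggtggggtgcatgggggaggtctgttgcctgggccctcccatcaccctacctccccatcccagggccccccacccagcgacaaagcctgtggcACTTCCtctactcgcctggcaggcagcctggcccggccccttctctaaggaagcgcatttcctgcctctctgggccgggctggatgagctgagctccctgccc
On either strand GGAAGT stood in 9 of 31 windows (29.0%), in the genes Kdr, Eng, Tie1, Flt1, Abcg2, Egfl7 and Ly6c1, against 23.8% of 32851 RefSeq windows of the same length. The window of Tek, another receptor, holds none, but the start of its main transcript lies outside it, 229 bases after the RefSeq start. The main transcript of Tjp1 also starts outside its window, at the same distance. Of the windows of Ly6c1, the 1 member lower by the size rule, that nearest to the transcript Ly6c1-204 holds the motif. The other, whose RefSeq start lies 7 to 49 bases from the starts of the 844, 838 and 522 nt forms, holds none. CAGGAAG stood in 8 of 31 (25.8%) against 13.3%, CCGGAAG in 0 of 31 against 8.86%, and AACAGGAA in 2 of 31 (6.45%) against 2.65%. The motif AGGAAG stood in 15 of 31 windows (48.4%) against 35.4% of all, CAGGAA in 14 of 31 (45.2%) against 30.5% and the core TTCC in 29 of 31 (93.5%) against 96.0%. These 8 motifs, and GGAAGT as the one to print, were chosen after looking at the matches. The ETS motifs share letters with each other, so their matches can overlap. CTTTGA, part of the TCF/LEF motif of Wnt signalling, stood in 4 of 31 windows (12.9%) against 16.0%. A match is a description of letters and not a binding site.

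Junction genes were mostly slightly higher. Of 6, 5 lay above 0 and the median was 0.11. Esam, an adhesion molecule of endothelial contacts, had 18.5 CPM in WT and 22.9 in cKO (0.31, interval 0.13 to 0.49), the highest ratio of the group. Cldn5, the main claudin of the barrier, had 79.6 and 87.1 CPM (0.13, interval 0.04 to 0.22). Cdh5, the cadherin that joins endothelial cells, had 38.5 and 40.2 CPM (0.06), and Pecam1, an adhesion molecule of the same contacts, 25.6 and 27.0 CPM (0.08). For these 2 and for Ocln, a tight junction protein (8.67 and 9.99 CPM, 0.20), the interval included equality. Tjp1, a scaffold found at the junctions of many cell types, was the exception at 137 CPM in WT and 123 in cKO (-0.16, interval -0.23 to -0.09). The gene that marks the seal itself, Cldn5, and the widely expressed scaffold therefore lay on opposite sides of equality, each by less than 0.32 on the log2 scale.

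Transporters lay more often on the lower side, with 6 of 8 below 0 and a median of -0.10. Mfsd2a, which carries lysolipids with docosahexaenoic acid and keeps vesicle traffic low, had 70.1 CPM in WT and 60.9 in cKO (-0.20, interval -0.30 to -0.10). Slc2a1, the glucose transporter of the barrier, had 77.7 and 68.5 CPM (-0.18, interval -0.28 to -0.09). Bsg, a chaperone of lactate transporters, had 379 and 357 CPM (-0.08, interval -0.13 to -0.04). The efflux pumps Abcb1a (29.8 and 27.9 CPM, -0.09) and Abcg2 (32.5 and 29.98 CPM, -0.12) and the organic anion transporter Slco1a4 (13.9 and 12.5 CPM, -0.15) had intervals that include equality. In counts, none of the 6 was lower by 0.32 or more on the log2 scale. On the authors' TPM (30.5 in WT and 15.9 in cKO) Abcg2 was at -0.94 with 0.1 added and past the 1.5-fold rule, and on their FPKM at -0.97.

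The amino acid transporters stood on the other side. Slc38a5, a glutamine transporter switched on by norrin and Wnt signalling, had the highest ratio of all 38 genes, at 12.5 CPM in WT and 16.3 in cKO (0.38, interval 0.16 to 0.60). It lies on the X chromosome, as does Itm2a, at 150.0 and 129 CPM (-0.22). These 2 X-linked members lay on opposite sides of 0, and the median of the 36 autosomal members was 0.08, as for all 38. Leaving out X-linked genes does not separate sex from genotype. Slc7a5, the large neutral amino acid carrier through which thyroid hormone and levodopa also pass, had 184 and 202.2 CPM (0.14, interval 0.08 to 0.20).

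Surface proteins held the only gene past the size rule. Ly6c1, a small lipid-anchored protein used to mark brain capillaries, lies on the minus strand at chr15:75044018-75048830. It had 378 counts in WT and 313 in cKO, or 8.81 and 5.68 CPM (-0.63, interval -0.95 to -0.32), a level 1.55-fold lower in cKO. On the authors' TPM, 26.1 and 17.6, the log2 ratio was -0.57 with 0.1 added to each value and missed 1.5-fold. Ly6a, its neighbour in the same gene cluster and also known as Sca-1, had 5.87 and 5.10 CPM (-0.21, interval -0.56 to 0.15).

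Ly6c1 has a near-identical copy, Ly6c2, known mainly from monocytes, so reads from one can be assigned to the other. Their coding sequences agree at 384 of 393 bases (97.7%), and 31.9% of the 50-base words of the 838 nt Ly6c1 transcript also occur in a Ly6c2 transcript. The first 90 coding bases, which hold 6 of the differences, are shown from GENCODE M21, 5′ to 3′, with differing bases in capitals.
Ly6c1: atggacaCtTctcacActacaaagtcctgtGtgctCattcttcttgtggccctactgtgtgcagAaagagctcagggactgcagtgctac
Ly6c2: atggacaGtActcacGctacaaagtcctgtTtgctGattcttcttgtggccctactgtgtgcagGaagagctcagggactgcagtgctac
Ly6c2 itself had 18 (WT) and 15 (cKO) counts. The sum of both genes had a log2 ratio of -0.63. Of the 6 measured genes of the Ly6 cluster, 3 lay above 0. Ly6h, a neuronal member, had a ratio of 0.35, Lynx1, a modulator of nicotinic receptors, 0.23 and Ly6e 0.08.

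The remaining surface proteins differed by less than 0.32 on the log2 scale. Podxl, a sialomucin of the luminal face, was higher at 30.2 CPM in WT and 37.2 in cKO (0.30, interval 0.15 to 0.44). Cd34, another sialomucin, was lower at 41.2 and 36.7 CPM (-0.17, interval -0.30 to -0.03). Plvap, the diaphragm protein that mature barrier vessels lose, was near equality at 17.6 and 17.7 CPM (0.01, interval -0.18 to 0.21), as was Emcn, a mucin of veins and capillaries, at 5.59 and 5.48 CPM (-0.03). Podxl and Cd34, of related structure, lay on opposite sides of equality.

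The transcription factors lay apart in direction with intervals that include equality. Erg, an ETS factor that maintains endothelial identity, had 7.65 CPM in WT and 8.76 in cKO (0.20, interval -0.10 to 0.49). Sox17, a factor of arterial identity and barrier maturation, had 7.16 and 6.24 CPM (-0.20, interval -0.52 to 0.13). At this depth neither difference was detectable.

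The group of secreted proteins and a Wnt inhibitor lay above 0 in 4 of 4 genes, with a median of 0.20. Apcdd1, a membrane inhibitor of Wnt that is itself a target of the pathway, had 89.3 CPM in WT and 108 in cKO (0.28, interval 0.19 to 0.36). Egfl7, a secreted endothelial protein whose gene hosts miR-126, had 18.6 and 22.3 CPM (0.27, interval 0.08 to 0.45). Vwf, the clotting factor carrier stored in endothelium, had 55.3 and 60.9 CPM (0.14, interval 0.03 to 0.25), and Pdgfb, the ligand that recruits pericytes, 27.8 and 30.2 CPM (0.12, interval -0.03 to 0.28).

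Barrier genes described as targets of Wnt signalling can be read across these groups. For Cldn5, Slc2a1, Mfsd2a, Abcb1a, Slc38a5, Apcdd1 and Sox17 the median was -0.09, with 3 of 7 above 0 (Cldn5, Apcdd1 and Slc38a5). Their intervals lay above equality for 3 and below it for 2, so the genes did not move in 1 direction.

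Each of the 5 pericyte genes had an interval that included equality. Rgs5, a regulator of G protein signalling that marks pericytes, had 179.6 CPM in WT and 179.8 in cKO (0.00, interval -0.06 to 0.06), the narrowest bound of the group. Vtn, vitronectin, had 119 and 118 CPM (-0.01, interval -0.08 to 0.07). Pdgfrb, the receptor for PDGF-B, had 42.1 and 44.5 CPM (0.08, interval -0.05 to 0.21). Abcc9, a subunit of the potassium channel of pericytes, had 21.05 and 23.3 CPM (0.15, interval -0.03 to 0.32), and Higd1b, a pericyte marker, had 86 and 127 counts (0.20, interval -0.38 to 0.79). The median was 0.08. Ratios lay above 0 in 4 of 5, in 3 of 5 with total counts alone and in 5 of 5 with upper quartile scaling or TPM.

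Other genes of the vessel wall and its signals gave few differences of size. Of 35 further endothelial genes, all measured, 23 lay above 0 with a median of 0.11, 1 was higher by the 1.5-fold rule and 1 lower. Pglyrp1, a peptidoglycan recognition protein abundant in brain endothelium, went from 5.01 to 9.47 CPM (0.92, interval 0.59 to 1.26). Slc19a3, a thiamine transporter, went from 3.52 to 2.05 CPM (-0.78, interval -1.30 to -0.26). The most abundant of the list, the transporter genes Slc3a2 and Slc16a1 and the receptor component Ramp2, were at 0.09, -0.02 and -0.0050. Of 20 measured mural genes, 10 lay above 0 and 1, the intermediate filament gene Des, was lower by the rule, on 115 and 71 counts (-1.06, interval -1.70 to -0.43). The most abundant mural genes, Ebf1, Mcam and Myl9, were at 0.09, -0.25 and -0.26.

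Ligands and signalling partners were examined next. Among 19 genes of Wnt and norrin signalling at the barrier the median was 0.03 and 1 was higher by the rule. That gene was Adgra2, which encodes the Wnt7 co-receptor GPR124, at 26.4 CPM in WT and 47.4 in cKO (0.84, interval 0.70 to 0.99). Among the most abundant, Ctnnb1, beta-catenin, was at -0.03, Tnfrsf19 at 0.03 and Tspan12, a partner of the norrin receptor, at -0.26. The ligands that ADGRA2 serves, named after their values were seen, were Wnt7a at 0.25 and Wnt7b at 0.30. Reck, the partner of ADGRA2, also named afterwards, was at -0.11. Of 22 genes of VEGF, angiopoietin and Notch signalling, 0 met the rule in either direction and the median was -0.0038. The most abundant, Vegfb, Hif1a and S1pr1, were at -0.07, -0.04 and -0.01. The ligand Vegfa, also named afterwards, had 44.5 CPM in WT and 33.2 in cKO (-0.42, interval -0.56 to -0.29), on the opposite side of equality from its receptor Kdr.

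Markers of other cells moved between the libraries beside these genes. Over 7 measured genes of red blood cells the median was 0.53, with 6 above 0, and they summed to 4505 TPM in WT and 6747 TPM in cKO. Hbb-bt, a beta globin gene, was higher by the rule at 0.60, and the globin genes Hbb-bs, Hba-a1 and Hba-a2 were at 0.53, 0.55 and 0.55. Leukocyte and platelet genes summed to 62.3 TPM in WT and 34.8 TPM in cKO, with 6 of 12 measured. Of these, S100a8 (-2.36) and S100a9 (-1.68), both abundant in neutrophils, were lower by the rule. The platelet gene Pf4 was at -0.30 and the myeloid integrin Itgam at -0.23, and Ptprc and Itga2b, named after their values were seen, were at -0.05 and 0.04. Of 8 neuronal markers, 8 lay above 0 with a median of 0.20, and the most abundant, Nefl, Nefm and Snap25, were at 0.13, 0.26 and 0.06. Meningeal and fibroblast genes had a median of -0.23 and summed to 1840 and 1527 TPM. In that list Igf2 (243 TPM in WT and 79.4 in cKO, -1.87) and Ogn (48.5 and 32.9 TPM, -0.60) were lower by the rule, while the collagen genes Col1a2, Col1a1 and Col3a1 were at -0.14, -0.11 and -0.18. Lymphatic genes summed to 39.0 and 36.9 TPM, and of 4 measured 1 lay above 0. Pdpn, Lyve1 and Prox1 were at -0.16, -0.06 and -0.11, and Flt4, named after its values were seen, at 0.41 (interval 0.11 to 0.71). Of 8 microglial genes, with a median of -0.10, Siglech was lower by the rule (2.73 CPM in WT and 1.65 in cKO), while C1qa had 27.3 and 24.8 CPM and Csf1r 65.3 and 69.3 CPM. The part of each of these in the vascular ratios was not tested.

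**Figure D3:**
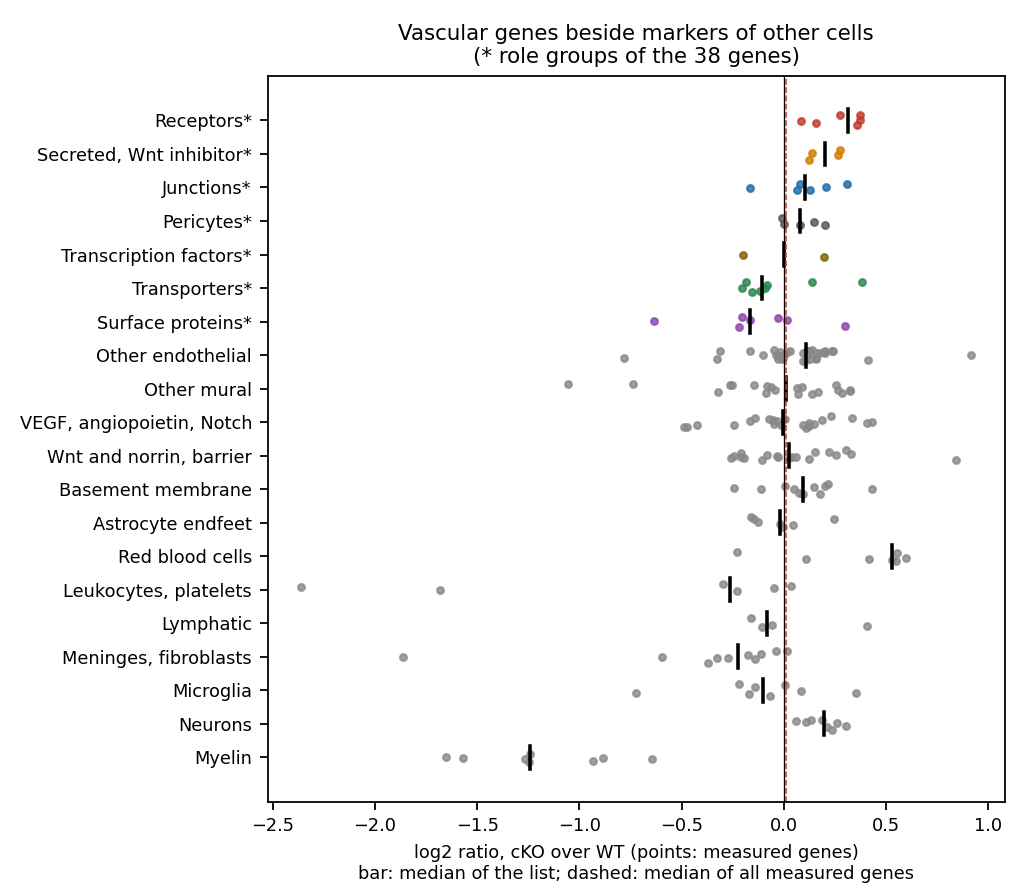
Log2 ratio of cKO over WT of each measured gene (points) by list, with the median of each list as a bar. Role groups of the 38 genes (asterisks, coloured) have medians from -0.17 (surface proteins) to 0.32 (receptors), against 0.53 for red blood cells and -1.24 for myelin genes.

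Several genes kept their total while the authors' estimate divided it differently between transcripts. In 18 of the 38 genes, 1 transcript held at least 90% of the counts in both libraries. In 16 of 38 (42.1%), a transcript of at least 10% of the gene's counts differed in share by 5 percentage points or more. The background for this was 34.5% of all measured genes, and 34.8% of those within the members' range of CPM. Shares of this kind therefore shifted about as often in other genes. Of 63 such transcripts of the members, 8 were higher and 10 lower by the 1.5-fold rule, against 12.7% and 13.4% of all such transcripts. These transcripts share most of their exons, and how counts were divided among them was estimated by the authors. Share intervals below are Wilson intervals at 95%.

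Abcg2, the efflux pump also known as BCRP, had a gene total near equality and transcripts far from it. Its form of 5717 nt had 383 (WT) and 1403 (cKO) counts. The share of the gene went from 27.5% (24.3% to 30.9%) to 84.9% (82.3% to 87.2%). Its form of 2178 nt had 929 and 214 counts, a share of 66.6% and 12.9%. Both encode 1971 coding bases and differ in the first exon and in the length of the last. TPM is corrected for length, and with the longer form dominant in cKO the gene's TPM went from 30.5 to 15.9 while its CPM differed by -0.12 on the log2 scale. The forms also end at different places (58695676 and 58692511 on chr6), so the shift cannot be assigned to the first exon. The windows around the starts of these forms are shown as a description only. Capitals mark GGAAGT, found in the first window and not in the second.
Abcg2 start of the 5717 nt form, chr6:58596422-58596721, plus strand: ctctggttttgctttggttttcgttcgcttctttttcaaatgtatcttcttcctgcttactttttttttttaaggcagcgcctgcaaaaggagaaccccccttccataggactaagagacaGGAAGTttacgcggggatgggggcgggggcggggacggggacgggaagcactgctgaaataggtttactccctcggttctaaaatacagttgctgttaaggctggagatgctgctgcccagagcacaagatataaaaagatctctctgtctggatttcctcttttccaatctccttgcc
Abcg2 start of the 2178 nt form, chr6:58640296-58640595, plus strand: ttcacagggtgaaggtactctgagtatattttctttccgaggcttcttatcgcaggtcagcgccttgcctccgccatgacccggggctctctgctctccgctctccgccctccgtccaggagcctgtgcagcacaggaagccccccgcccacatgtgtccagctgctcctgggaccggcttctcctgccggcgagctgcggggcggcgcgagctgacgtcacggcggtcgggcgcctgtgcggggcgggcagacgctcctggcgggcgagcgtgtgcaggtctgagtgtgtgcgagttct
The RefSeq start in the second window lies 18 bases before that of the 2178 nt form.

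Slc38a5 and Egfl7 also shifted between transcripts with different first exons. The 1868 nt form of Slc38a5 had 114 counts in WT and 815 in cKO (21.3% and 90.9% of the gene), and the 1983 nt form had 417 and 80 (77.8% and 8.92%). Their starts lie 261 bases apart on the X chromosome, and their coding sequences also differ, with 1437 and 1413 bases. For Egfl7, the 1372 nt form went from 33.7% to 50.5% of the gene and the 1163 nt form from 24.2% to 10.4%.

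Transcripts of further genes, as of Slc38a5, differed in the coding sequence. Eng-202 runs on past an exon end into an intron of Eng-205 and so encodes a form with another cytoplasmic tail, known as short endoglin. It had 478 counts in WT and 1100 in cKO (0.84, interval 0.62 to 1.07), while Eng-205, with the long tail, had 702 and 858 (-0.07, interval -0.28 to 0.13). The higher ratio of Eng was thus carried by the short form in this estimate, whose share was 40.0% in WT and 55.3% in cKO. The forms also differ in where they end, so the shift cannot be assigned to the intron stretch alone. The 86 coding bases found in Eng-202 and not in Eng-205 are shown.
Eng-202, chr2:32681298-32681383, plus strand: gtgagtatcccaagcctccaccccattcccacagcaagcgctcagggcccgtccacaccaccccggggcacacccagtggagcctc
Eng overlaps exons of Fpgs on the opposite strand (404 and 515 counts), and whether the counting used strand is not known here.

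Emcn divided on few counts between forms that differ in a coding exon and at the 3′ end. Emcn-201 (1357 nt), without the exon, had 89 counts in WT and 30 in cKO, a share of 37.1% and 9.93%. Emcn-202 (2588 nt), with the exon, had 150 and 251, a share of 62.5% and 83.1%. Most of the difference in length lies outside the 39 coding bases of the exon, and the shift cannot be assigned to it.
Emcn exon, chr3:137403984-137404022, plus strand: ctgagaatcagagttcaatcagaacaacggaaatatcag

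Sox17 shifted between a form of 1257 coding bases, with 204 counts in WT and 87 in cKO, and a form of 1062, with 35 and 169. An 840 nt form of Sox17 had 63 and 54 counts (20.5% and 15.7% of the gene). These Sox17 values rest on few counts. For Cd34, the form with the long coding sequence (1146 bases) held 63.6% in WT and 70.1% in cKO, and the form of 975 coding bases 35.4% and 28.0%. The 3 forms of Ly6c1 did not move together, since the 838 nt form had 257 and 147 counts and the 844 nt form had 44 and 93. The 522 nt form had 53 and 36. Ocln-203 had 105 counts in WT and was listed at 0 in cKO, and Ocln-205 was listed at 0 in WT and had 167 in cKO, while Ocln-201 held 17.5% and 23.0% and Ocln-202 54.3% and 46.6%. In contrast, the Flt1 form of 2064 coding bases, which ends before the kinase exons and encodes soluble FLT1, named after its values were seen, held 57.2% of Flt1 in WT and 58.9% in cKO.

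The other shifts touched 7 genes. The 3441 nt form of Pecam1 had 81 and 243 counts (1.22, interval 0.70 to 1.77), and its 3283 nt form went from 32.5% to 26.3% and its 3233 nt form from 47.8% to 42.6%. The 6213 nt form of Abcc9 had 106 and 289 counts (1.08, interval 0.62 to 1.57), and its 7306 nt form, with the same number of coding bases, went from 86.0% to 75.3%. Ly6a divided between a form of 853 nt (134 and 75 counts, -1.20) and a form of 955 nt (109 and 167 counts, 0.25). The 2007 nt form of Erg had 78 and 31 counts (-1.69), its 1368 nt form went from 10.4% to 16.1%, and a transcript with no GENCODE M21 name from 55.5% to 63.1%. These Erg and Ly6a values rest on few counts. The main transcript of Tie1 went from 85.4% to 96.9% and that of Vtn from 98.0% to 90.1%. Those of Higd1b went from 73.3% to 67.7% (63 and 86 counts) and from 24.4% to 32.3% (21 and 41 counts). For both Higd1b forms the share intervals of the libraries overlap. They also overlap for the 3283 and 3233 nt forms of Pecam1 and the 955 nt form of Ly6a. The same holds for the 1368 nt form of Erg and its transcript with no name. Among the Ocln and Ly6c1 forms above, the intervals of Ocln-201, Ocln-202 and the 522 nt form of Ly6c1 overlap as well.

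**Figure D4:**
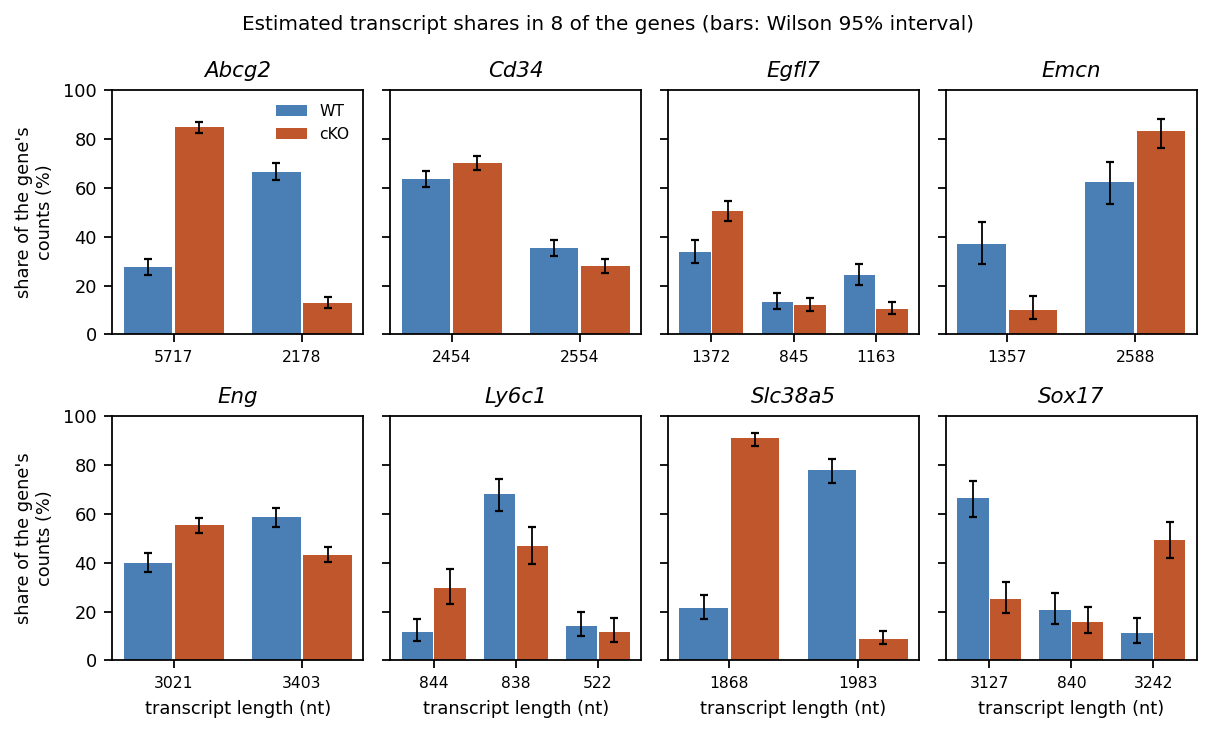
Share of each gene's counts (percent, bars) assigned to its transcripts of at least 10%, labelled by length in nt, in WT and cKO, for 8 genes chosen after their values were seen, with Wilson 95% intervals. Abcg2 and Slc38a5 exchange their main transcript between the libraries (the 5717 nt form of Abcg2 from 27.5% to 84.9%, the 1868 nt form of Slc38a5 from 21.3% to 90.9%). Eng and Sox17 also exchange theirs (the 3021 nt form of Eng from 40.0% to 55.3%, the 3242 nt form of Sox17 from 11.4% to 49.1%), whereas Cd34 keeps the same one.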

How the data were processed

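RNA of 2 libraries (1 WT, 1 cKO) was described from the files the authors deposited, which give estimated counts, TPM and FPKM per gene and transcript, per the file headers. CASAVA, Bowtie2 2.3.2 and the build GRCm38.p6 stand in the submitters' processing notes without a role. Which program counted, with which annotation and strand, is not given in the sources used here. Deposited counts were whole numbers rounded up from estimates (within 0.1 for 98.9% of low transcripts). Intervals took 2 counts as 1 fragment. This rests on low genes with 1 transcript, where estimates within 0.2 of an even number outnumbered those near an odd one. The range of estimates from 1.5 to 10, which showed this most strongly (41.5% even and 14.4% odd in WT, 38.9% and 15.7% in cKO), was the last of 5 ranges looked at and was picked after seeing the values. Over the widest, 0.5 to 50, the shares were 28.4% and 21.6% in WT and 27.5% and 22.2% in cKO. Taking each count as 1 read was an alternative and leaves every ratio as it is.

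Counts were scaled with TMM (edgeR 4.0.16, R 4.3.3) to CPM, and ratios have no pseudocount. Python 3.11.15, scipy 1.17.1, numpy 2.4.6, pandas 2.3.3 and matplotlib 3.10.9 were used, and the ratio and interval were tested on simulated data. Alternatives were other scalings (DESeq2 1.42.0, upper quartile, none), TPM with 0.1 or 1 added, FPKM with 0.1 added, other filters and other folds. Counting intervals and floors treat fragments as independent molecules, which PCR copies are not. GENCODE M21 held 51633 of the gene IDs, 94.1% at the same position. All 38 members were named, with up to 4 genes past the size rule and 3 of highest TPM from each further list, and transcripts of at least 10% of a gene past the rule or differing by 5 percentage points. Some genes that this rule picks from the further lists are not reported here. Other genes are said to have been named after their values were seen. Members and lists were chosen with earlier results of these data known. Antisense exons with at least 40 counts overlapped Eng, Egfl7 and Cd34.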

Additional observations from a re-analysis of the deposited data

How the results depend on the processing

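With 1 library per group, leaving out a library was not possible, and no paired analysis was possible because each group has 1 library. The 3 other scalings moved no member's log2 ratio by more than 0.018. The median over the members lay between 0.07 and 0.11 under every alternative run, against 0.08. The number of members lower by the size rule was 2 on the authors' FPKM (Ly6c1 and Abcg2), 0 at 2-fold and 7 at any fold; on the authors' TPM it was 1, but that gene was Abcg2 (-0.94 with 0.1 added, -0.90 with 1 added) and not Ly6c1 (-0.57 and -0.54). The number higher was 4 at a fold of 0.32 on the log2 scale and 13 at any fold, the any-fold rule being added after seeing the data. Taken by transcript in place of the gene, which was chosen after seeing the data, the 844 nt form of Ly6c1 stood at 0.72, of the opposite sign to the gene. The cause of these changes was not tested, except that Abcg2's TPM follows the length of the transcript estimated to dominate. Depth limits Higd1b, Emcn, Ly6a, Sox17, Ly6c1, Erg and Ocln, whose intervals span more than 0.5 on the log2 scale.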

Other observations

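The layers outside the endothelium differed by small amounts. Of 11 basement membrane genes, 9 lay above 0 with a median log2 ratio of 0.10, and 0 met the 1.5-fold rule in either direction. Col4a2, a chain of the vessel collagen, was at 0.20 and Lama5, a laminin chain, at 0.43, while Fn1, fibronectin, was at -0.24 (115 TPM in WT and 87.3 in cKO). Sparc, a matrix protein made by several cell types and the most abundant of the list, was at -0.11, and Nid1, nidogen, at 0.08. Of 7 genes of the astrocyte endfeet that cover the vessel, 2 lay above 0, the median was -0.02 and 0 met the rule. Aqp4, the water channel of endfeet, was at -0.14, the gap junction gene Gja1 at -0.12, Mlc1 at -0.02 and Dtna, a part of the dystrophin complex that anchors it, at 0.24. The basement membrane genes Col4a2 and Lama5 and the endfoot gene Dtna were named after their values were seen.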
